A study of Mus musculus with 18 samples.

Results

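The cell cycle and DNA replication genes described here were 60 mouse genes chosen by symbol for their known roles. All 60 were found among the 36528 genes of the deposited count tables, of which 31049 matched a RefSeq symbol (assembly GRCm38.p6), and all 60 belonged to the 15521 genes that were tested, those where at least 4 samples had over 10 reads. RNASeq was performed on 18 samples of cultured murine renal proximal tubulo-interstitial epithelial cells (RPTEC), which were C57BL/6 cells bought from ScienCell, and the samples formed 6 groups of 3. Cells received vehicle (DMSO), TWEAK at 100 ng/mL, or TWEAK at 100 ng/mL with 3 μM NIK SMI1, and were collected at 6 h or 24 h. TWEAK is a cytokine of the TNF family, and NIK SMI1 is a small molecule inhibitor of NIK, the kinase that starts non-canonical NF-κB signaling. No group received NIK SMI1 alone, so its effect was measured only in the presence of TWEAK. The authors described 3 replicates per treatment. Neither they nor the labels named separate animals or cell preparations, so the p-values measure the spread between these samples, which may be technical.

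A dividing cell first licenses its replication origins by loading MCM helicases with the help of Cdc6 and Cdt1, then activates those helicases, copies its DNA, and separates the copies in mitosis. Cyclins and cyclin-dependent kinases (CDKs) drive these steps, E2F, Foxm1 and Mybl2 switch on the genes needed for each of them, and brakes such as the CDK inhibitors, Rb1 and p53 hold cells back. In the adult kidney tubular epithelial cells divide rarely and re-enter the cycle after injury, whereas cultured tubular cells proliferate. The 60 members were grouped by role into 9 origin licensing genes, 7 genes of helicase activation and the replication fork, 4 nucleotide synthesis genes, 9 G1 and G1/S cyclins, kinases and a phosphatase, 6 S/G2/M cyclins, kinase and phosphatases, 14 mitosis and proliferation markers, 5 transcription factors and 6 brakes.

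The samples held 18040966 to 51956444 counted reads, and every member had at least 23 reads in every sample. Levels are given as CPM, the deposited counts scaled to the same total of counted reads in each sample. Markers placed the cells as tubular epithelium with few features of a mature proximal tubule: Pax8 (28.3 to 50.5 CPM) and Cdh6 (61.4 to 183 CPM) were present, while Lrp2 and Aqp1 reached at most 0.586 and 0.455 CPM and Slc34a1 and Hnf4a at most 0.0441 and 0.0575 CPM. Krt7, Cdh1 and Epcam, from the list for the distal nephron and collecting duct, were abundant (641 CPM or more in every sample), whereas Umod was at 0 in all 18 samples. The summed leukocyte and endothelial markers reached at most 0.507 and 0.813 CPM. The 8 fibroblast markers summed to 36.3 to 51.5 CPM, with Vim at 21.8 to 32.3, Col1a1 at 8.77 to 13.3 and Acta2 at 3.47 to 7.51 CPM. Of the same list, Pdgfra, Pdgfrb, Col3a1, Dcn and Lum reached at most 0.925 CPM. Xist (107 to 153 CPM) and the 4 Y-linked genes (56.3 to 74.2 CPM in sum) were both present in every sample. Pancreatic islet genes summed to 14.1 CPM or more in 13 of the samples but to 0.235 and 4.42 CPM in TWEAK replicates 2 and 3 at 24 h and to at most 0.087 CPM in the 3 samples with NIK SMI1 at 24 h. Their part in the results was not tested, and values at 24 h are also given with a single TWEAK sample. In bulk RNA, fewer cells in a cell cycle phase and less RNA per cell cannot be told apart.

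Members were compared per exon length with the deposited RPKM values (reads scaled by exon length and by the depth of the sample). The most abundant were regulators of G1, but not every regulator of G1 was abundant. With vehicle at 6 h Cdk6 (16.4 RPKM), Cdk2 (11.9 RPKM) and Ccne2 (1.63 RPKM) lay below Mcm6 (31.4 RPKM) and Rrm2 (26.7 RPKM). Ccnd1, which encodes cyclin D1, had the highest level with vehicle at 6 h, at 786 ± 10.7 RPKM (SD, n = 3). It was followed by Cdkn1a, the CDK inhibitor p21, at 368 ± 7.32 RPKM, and by Cdk4, a partner kinase of cyclin D, at 274 ± 4.84 RPKM. Trp53 (85.5 ± 2.29 RPKM) and Ccnd2 (80.2 ± 2.04 RPKM) came next, and differed by more than the SD of either. Cdkn2a (49.5 ± 1.52 RPKM) and Cdkn2b (48.7 ± 0.369 RPKM) did not differ beyond their spread. At the low end, Ccnb1, Cdc25c and Ttk lay between 1.25 and 1.44 RPKM with neighbours in that order overlapping in their spread, and E2f2 was lowest at 0.325 ± 0.0317 RPKM. At 24 h Ccnd1 and E2f2 were still first and last, at 813 ± 9.59 and 0.409 ± 0.0453 RPKM.

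Between 6 h and 24 h in vehicle, the replication and mitosis genes about doubled, 6 of the 9 G1 and G1/S genes rose, and 4 of the 6 brakes did not pass the test. Adjusted p-values throughout are from edgeR's quasi-likelihood test over all 15521 genes. Of the 60 members, 53 passed the threshold of 0.05 (88.3%, against 29.9% of all genes tested), 51 of them higher at 24 h (15.5% of all genes were higher) and 2 lower (14.4% of all genes). The members had a median log2 fold change of 0.96, a 1.94-fold level, against 0.0053 over all genes tested. In 58 members the 3 samples at 24 h all lay above the 3 at 6 h, a pattern that 31.0% of all genes showed. Summed over their members, the mitosis and proliferation markers stood at 2.41 times, the S/G2/M group at 2.29 times, the nucleotide synthesis genes at 2.15 times and the origin licensing genes at 1.88 times their 6 h level, the G1 and G1/S group at 1.08 times and the brakes at 0.924 times. The G1 and G1/S sum is carried by the abundant Ccnd1, while the median of the group was a log2 fold change of 0.29.

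The largest rises were in mitotic regulators. Ccnb1, which encodes the mitotic cyclin B1, measured 3.37, 3.31 and 3.73 CPM with vehicle at 6 h and 10.7, 9.18 and 9.57 CPM at 24 h, a log2 fold change of 1.44 ± 0.10 (SE, adjusted p = 2.02e-11). Aurkb, the kinase of the chromosomal passenger complex, went from 16.0, 14.1 and 15.1 CPM to 39.5, 44.4 and 43.2 CPM (log2 fold change 1.42 ± 0.058, adjusted p = 2.77e-16). In neither gene did the times overlap. Cdc25c, a phosphatase that activates CDK1, rose from 3.73, 4.44 and 3.58 CPM to 10.4, 10.3 and 9.96 CPM (log2 fold change 1.33 ± 0.099, adjusted p = 3.52e-11), and Bub1b, a spindle checkpoint kinase, from 18.8, 17.98 and 19.5 CPM to 49.0, 49.9 and 48.8 CPM (log2 fold change 1.32 ± 0.054, adjusted p = 2.76e-16). All 14 mitosis and proliferation markers, all 6 S/G2/M genes, all 9 licensing genes, all 7 fork genes and all 4 nucleotide synthesis genes rose. The proliferation marker Mki67 measured 46.6, 37.9 and 39.5 CPM at 6 h and 107, 101 and 92.9 CPM at 24 h (log2 fold change 1.23 ± 0.062, adjusted p = 1.31e-14), well apart.

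Cdkn1a and Cdk6 were the 2 members that fell with time in vehicle. Cdkn1a measured 752, 790 and 783 CPM at 6 h and 648, 648 and 649 CPM at 24 h, a log2 fold change of -0.32 ± 0.028 (adjusted p = 8.22e-10). Cdk6, a G1 kinase, measured 215, 190 and 186 CPM at 6 h and 177, 171 and 170 CPM at 24 h (log2 fold change -0.25 ± 0.045, adjusted p = 9.03e-05). Cyclin D1 did not pass the threshold: Ccnd1 measured 3292, 3293 and 3263 CPM at 6 h and 3400, 3378 and 3439 CPM at 24 h. Its log2 fold change was -0.01 ± 0.024, and its sign turned (0.05, adjusted p = 0.0477 in edgeR) when library sizes were used without TMM factors. The other members that did not pass were Cdc25a, E2f2, Cdkn1b, Cdkn2a, Cdkn2b and Trp53. Time was not separated from longer exposure to vehicle, and counted reads ranged from 30863467 to 51956444 at 6 h and from 19711692 to 42764502 at 24 h.

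**Figure D1:**
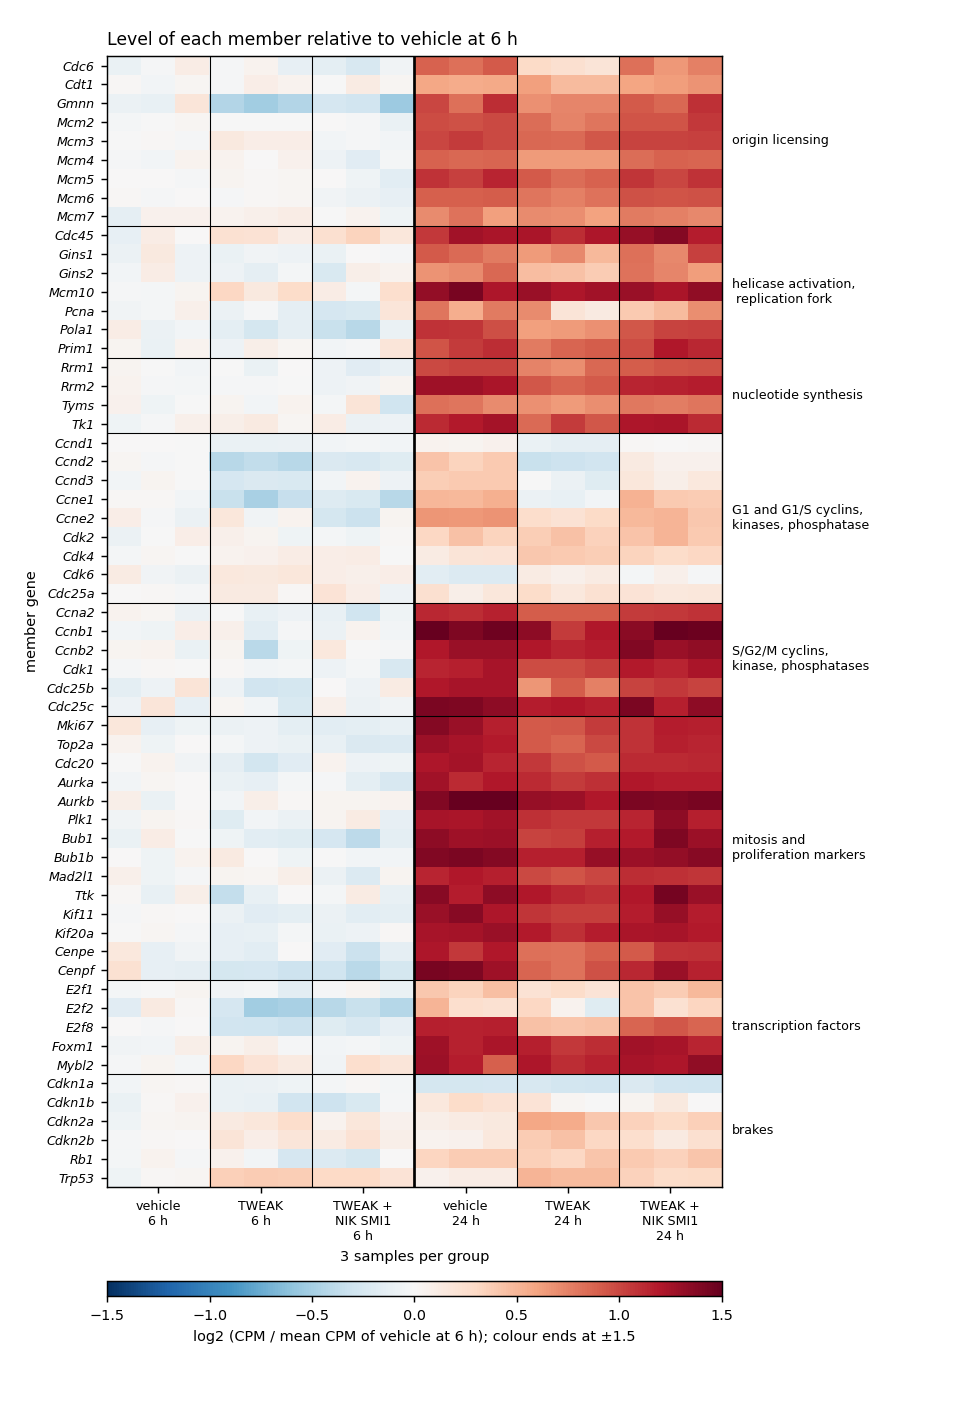
Level of the 60 members in each of the 18 samples, as log2 of CPM over the mean of vehicle at 6 h, with rows grouped by role and columns by group. The 24 h columns are red for replication and mitosis genes, in which all 27 members of the S/G2/M, mitosis and fork groups rose with time in vehicle, and the middle block at 24 h (TWEAK) is paler than its neighbours, or blue, for E2f8, Cdc6, Ccnd2 and Ccne1.

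Promoters of 8 members are shown because the licensing and the mitosis genes moved as groups, and the letters that E2F factors and the CHR-binding complexes recognise are known features of the promoters of such genes. RefSeq promoter windows (250 bases before to 50 after the annotated start, build GRCm38.p6) existed for 47 of the 60 members, and 5 of these had a second window, so that 52 windows were searched on both strands. The E2F letters searched were TTTCCCGC, TTTCGCGC, TTTGCCGC and TTTGGCGC, the CHR letters TTTGAA and the CCAAT box CCAAT. E2F words can overlap each other. Capitals mark E2F letters in Cdc6, Mcm5 and Mcm6, E2F and then CHR letters in Cdk1, CHR letters in Mki67, Top2a and E2f8, and a match to the 10-base κB consensus in Trp53. In Mcm5 and Mcm6 a longer run of capitals is a pair of overlapping words, one on each strand. Each line gives the strand of the gene, 5′ to 3′. The positions are chr11:98907901-98908200 (+) for Cdc6, chr8:75109259-75109558 (+) for Mcm5, chr1:128359656-128359955 (-) for Mcm6, chr10:69352863-69353162 (-) for Cdk1, chr7:135716330-135716629 (-) for Mki67, chr11:99024140-99024439 (-) for Top2a, chr7:48881547-48881846 (-) for E2f8 and chr11:69580109-69580408 (+) for Trp53.
Cdc6: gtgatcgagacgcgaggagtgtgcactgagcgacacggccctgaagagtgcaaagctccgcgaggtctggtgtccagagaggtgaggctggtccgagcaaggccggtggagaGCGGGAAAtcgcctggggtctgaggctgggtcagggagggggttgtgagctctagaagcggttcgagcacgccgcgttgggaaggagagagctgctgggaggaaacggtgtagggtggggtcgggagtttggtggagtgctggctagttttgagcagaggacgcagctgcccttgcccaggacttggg
Mcm5: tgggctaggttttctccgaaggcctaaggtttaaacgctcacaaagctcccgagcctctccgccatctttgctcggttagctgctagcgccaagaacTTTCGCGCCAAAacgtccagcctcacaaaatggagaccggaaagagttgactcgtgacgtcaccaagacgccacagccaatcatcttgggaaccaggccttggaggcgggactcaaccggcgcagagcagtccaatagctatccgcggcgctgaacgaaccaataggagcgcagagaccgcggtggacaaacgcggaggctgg
Mcm6: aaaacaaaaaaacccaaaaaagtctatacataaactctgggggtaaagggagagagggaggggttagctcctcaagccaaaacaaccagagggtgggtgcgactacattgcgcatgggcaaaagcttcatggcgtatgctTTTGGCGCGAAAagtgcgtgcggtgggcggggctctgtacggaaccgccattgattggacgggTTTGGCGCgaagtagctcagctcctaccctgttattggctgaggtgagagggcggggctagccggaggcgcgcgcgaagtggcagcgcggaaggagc
Cdk1: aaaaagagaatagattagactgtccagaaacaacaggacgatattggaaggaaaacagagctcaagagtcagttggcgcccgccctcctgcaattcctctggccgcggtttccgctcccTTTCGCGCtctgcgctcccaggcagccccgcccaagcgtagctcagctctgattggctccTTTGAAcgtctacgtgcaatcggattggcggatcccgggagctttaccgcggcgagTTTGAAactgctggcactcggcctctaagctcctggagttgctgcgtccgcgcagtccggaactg
Mki67: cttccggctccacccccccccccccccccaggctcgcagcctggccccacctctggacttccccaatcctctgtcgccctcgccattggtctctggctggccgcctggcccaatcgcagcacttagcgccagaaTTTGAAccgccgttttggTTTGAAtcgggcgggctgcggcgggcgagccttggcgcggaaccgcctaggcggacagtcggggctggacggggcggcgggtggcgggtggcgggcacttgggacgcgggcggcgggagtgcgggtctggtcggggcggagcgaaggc
Top2a: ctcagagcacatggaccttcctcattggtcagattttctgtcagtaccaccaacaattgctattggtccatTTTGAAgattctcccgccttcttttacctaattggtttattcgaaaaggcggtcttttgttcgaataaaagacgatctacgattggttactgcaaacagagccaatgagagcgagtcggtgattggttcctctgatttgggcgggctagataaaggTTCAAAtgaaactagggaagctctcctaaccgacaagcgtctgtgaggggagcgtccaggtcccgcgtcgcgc
E2f8: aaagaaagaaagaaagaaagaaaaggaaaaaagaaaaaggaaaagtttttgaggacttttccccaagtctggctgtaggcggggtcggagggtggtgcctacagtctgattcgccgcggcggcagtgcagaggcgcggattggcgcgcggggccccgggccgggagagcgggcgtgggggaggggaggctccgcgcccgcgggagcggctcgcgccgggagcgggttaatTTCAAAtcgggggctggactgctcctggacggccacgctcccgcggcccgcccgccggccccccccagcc
Trp53: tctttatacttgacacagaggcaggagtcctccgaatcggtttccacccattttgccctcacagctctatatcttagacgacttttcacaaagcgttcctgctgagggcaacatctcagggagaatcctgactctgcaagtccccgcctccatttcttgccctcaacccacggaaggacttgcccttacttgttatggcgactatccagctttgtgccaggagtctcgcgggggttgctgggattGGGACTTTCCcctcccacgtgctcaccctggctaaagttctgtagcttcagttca

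E2F letters were held by 12 of the 52 member windows (23.1%), against 2.26% of all 32851 promoter windows. They were in 6 of the 8 windows of the licensing genes (Mcm3, Mcm5, Mcm6, Mcm7, Cdt1 and Cdc6) and in 0 of the 12 windows of the mitosis and proliferation markers. CHR letters were in 9 of those 12 windows (75.0%) and in 16 of the 52 (30.8%), against 17.9% of all windows. CCAAT letters were in 37 of the 52 (71.2%), against 37.4% of all. The κB consensus matched 2 of the 52 windows (3.85%), those of Mcm7 and Trp53, against 4.51% of all windows. These counts describe letters in a window, not sites in use.

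TWEAK for 24 h lowered most of the replication and mitosis genes and raised 3 of the 6 brakes. The falls were modest: the members' median log2 fold change was -0.19, or 0.878-fold, against -0.0055 over all genes tested. In all, 43 of 60 members passed the threshold (71.7%, against 39.0% of all genes), of which 38 were lower (63.3%, against 20.7% of all genes) and 5 higher (8.33%, against 18.3%). Among these calls the estimate was over 1.2-fold lower in 17 members (13.5% of all genes) and over 1.2-fold higher in 4 (8.99% of all genes). When the change itself was tested against 1.2-fold (glmTreat), 9 members were lower and 2 higher, where 13.7% of all genes passed. All 3 TWEAK samples lay below all 3 vehicle samples in 40 members, as they did in 25.6% of all genes.

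By role, 12 of the 14 mitosis and proliferation markers fell, as did 7 of 9 licensing genes, 4 of 7 fork genes, 3 of 4 nucleotide synthesis genes, 4 of 6 S/G2/M genes and 3 of 5 transcription factors, and 0 of these 45 genes rose. Among the 9 G1 and G1/S genes the cyclins and the kinases parted: Ccnd1, Ccnd2, Ccnd3, Ccne1 and Ccne2 fell, Cdk4 and Cdk6 rose, and Cdk2 and Cdc25a did not pass. Summed CPM of the nucleotide synthesis genes was 362 ± 1.67 (SD, n = 3) with vehicle and 300 ± 8.62 with TWEAK. For the licensing genes the sums were 835 ± 1.01 and 749 ± 11.7 CPM, and for the mitosis and proliferation markers 986 ± 20.1 and 828 ± 24.0 CPM.

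The steepest fall was that of E2f8, an atypical E2F that represses S phase genes late in the cycle. It measured 75.0, 74.1 and 74.5 CPM with vehicle and 45.1, 44.6 and 45.3 CPM with TWEAK, a log2 fold change of -0.73 ± 0.039 (39.7% lower, adjusted p = 1.56e-14). Each TWEAK sample was far below each vehicle sample, and the promoter above carries 1 CHR word.

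Cyclins of G1 followed. Ccnd2, which encodes cyclin D2, measured 731, 684 and 713 CPM with vehicle and 432, 438 and 447 CPM with TWEAK (log2 fold change -0.69 ± 0.031, adjusted p = 4.15e-16). Ccne1, the cyclin E1 that activates CDK2 at S phase entry, measured 31.0, 30.7 and 31.9 CPM against 20.8, 20.4 and 21.4 CPM (log2 fold change -0.58 ± 0.061, adjusted p = 1.21e-08). Ccnd3 measured 88.4, 89.7 and 90.0 CPM against 68.1, 64.3 and 60.4 CPM (log2 fold change -0.48 ± 0.043, adjusted p = 5.42e-10). In none of the 3 did the groups overlap. Ccnd1, the most abundant member, moved less, from 3400, 3378 and 3439 CPM to 3051, 2980 and 3000 CPM (log2 fold change -0.18 ± 0.024, adjusted p = 7.97e-07), still without overlap.

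Of the replication genes, Cdc6 changed most. This origin loader measured 22.2, 21.4 and 22.9 CPM with vehicle and 14.7, 14.3 and 13.8 CPM with TWEAK (log2 fold change -0.64 ± 0.068, adjusted p = 1.19e-08). The helicase subunits it loads fell less and kept apart from vehicle: Mcm4 measured 117, 115 and 116 CPM with vehicle and 98.6 CPM in each TWEAK sample (log2 fold change -0.23 ± 0.037, adjusted p = 8.04e-06). Mcm2 measured 130, 129 and 131 CPM against 118, 111 and 116 CPM (log2 fold change -0.18 ± 0.039, adjusted p = 0.00045), and Mcm3 134, 139 and 133 CPM against 122, 120 and 128 CPM (log2 fold change -0.13 ± 0.034, adjusted p = 0.0025). Gmnn, which encodes geminin, the inhibitor of Cdt1, measured 17.7, 15.7 and 19.1 CPM against 14.3, 14.7 and 14.7 CPM (log2 fold change -0.27 ± 0.085, adjusted p = 0.0144), and lost its call without vehicle replicate 1 (0.0561) or 3 (0.0861). Cdt1 itself had a log2 fold change of -0.05 ± 0.051 and Mcm7 of -0.05 ± 0.049, and neither passed. Pcna, the sliding clamp, had a call that rested on single samples: it measured 17.1, 14.3 and 16.8 CPM with vehicle and 16.1, 11.2 and 10.7 CPM with TWEAK, so the groups overlapped, and the log2 fold change of -0.39 ± 0.12 (adjusted p = 0.00967) lost its call without vehicle replicate 1 (adjusted p = 0.0733), without TWEAK replicate 2 (0.0769) or without TWEAK replicate 3 (0.0859).

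Most mitotic genes fell too. Mki67 measured 107, 101 and 92.9 CPM with vehicle and 78.3, 78.8 and 85.4 CPM with TWEAK (log2 fold change -0.32 ± 0.059, adjusted p = 9.09e-05). Top2a, the topoisomerase that untangles sister chromatids, measured 298, 288 and 279 CPM against 231, 223 and 243 CPM (log2 fold change -0.31 ± 0.042, adjusted p = 7.54e-07). Cdk1, the mitotic kinase, measured 110, 112 and 118 CPM against 98.3, 97.9 and 102 CPM (log2 fold change -0.18 ± 0.043, adjusted p = 0.0012). In each of these genes the highest TWEAK sample was below the lowest vehicle sample. Cenpf, a kinetochore protein, had the largest fall of the group at a log2 fold change of -0.49 ± 0.070 (adjusted p = 2.22e-06). Ccnb1, with 10.7, 9.18 and 9.57 CPM against 8.77, 7.17 and 7.98 CPM (log2 fold change -0.33 ± 0.096, adjusted p = 0.00758), lost its call without vehicle replicate 1 (0.0946) or without TWEAK replicate 2 (0.0743). Ttk and Aurka were the mitosis and proliferation markers that did not pass.

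The members that rose were brakes and G1 kinases. Trp53, which encodes p53, measured 211, 219 and 219 CPM with vehicle and 289, 282 and 280 CPM with TWEAK (log2 fold change 0.39 ± 0.033, adjusted p = 2.03e-10). Cdkn2a, whose reads cover both p16 and p19 transcripts of the locus and cannot be divided between them, measured 62.2, 63.4 and 64.8 CPM against 87.1, 85.8 and 77.6 CPM (log2 fold change 0.39 ± 0.047, adjusted p = 1.04e-07). Its neighbour Cdkn2b, the CDK inhibitor p15, measured 73.3, 73.9 and 79.0 CPM against 92.1, 96.0 and 87.8 CPM (log2 fold change 0.29 ± 0.044, adjusted p = 6.75e-06). All TWEAK samples were above all vehicle samples in these brakes. Cdk6 measured 177, 171 and 170 CPM against 214, 208 and 215 CPM (log2 fold change 0.29 ± 0.045, adjusted p = 6.82e-06), and Cdk4 rose with a log2 fold change of 0.22 ± 0.034 (adjusted p = 6.59e-06). Cdkn1a, the second most abundant member, did not pass: it measured 648, 648 and 649 CPM with vehicle and 655, 641 and 633 CPM with TWEAK (log2 fold change -0.01 ± 0.028, adjusted p = 0.785). Cdkn1b and Rb1 did not pass either.

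Against vehicle, TWEAK replicate 1 at 24 h, the TWEAK sample with an islet gene level like that of vehicle (14.1 CPM against 14.9 to 21.0 CPM), gave 28 called members when it stood alone for TWEAK, 23 lower and 5 higher, where 23.8% of all genes were called, and a median log2 fold change of -0.16. Of the members given by sample, Pcna, Mcm2, Aurkb, Ccnb1 and Gmnn lost their call in that comparison. Their log2 fold changes there were -0.0032 for Pcna, -0.14 for Mcm2, -0.17 for Aurkb, -0.17 for Ccnb1 and -0.29 for Gmnn. The lone sample was assumed to vary like the other groups. Leaving out any 1 sample gave 36 to 44 called members.

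**Figure D2:**
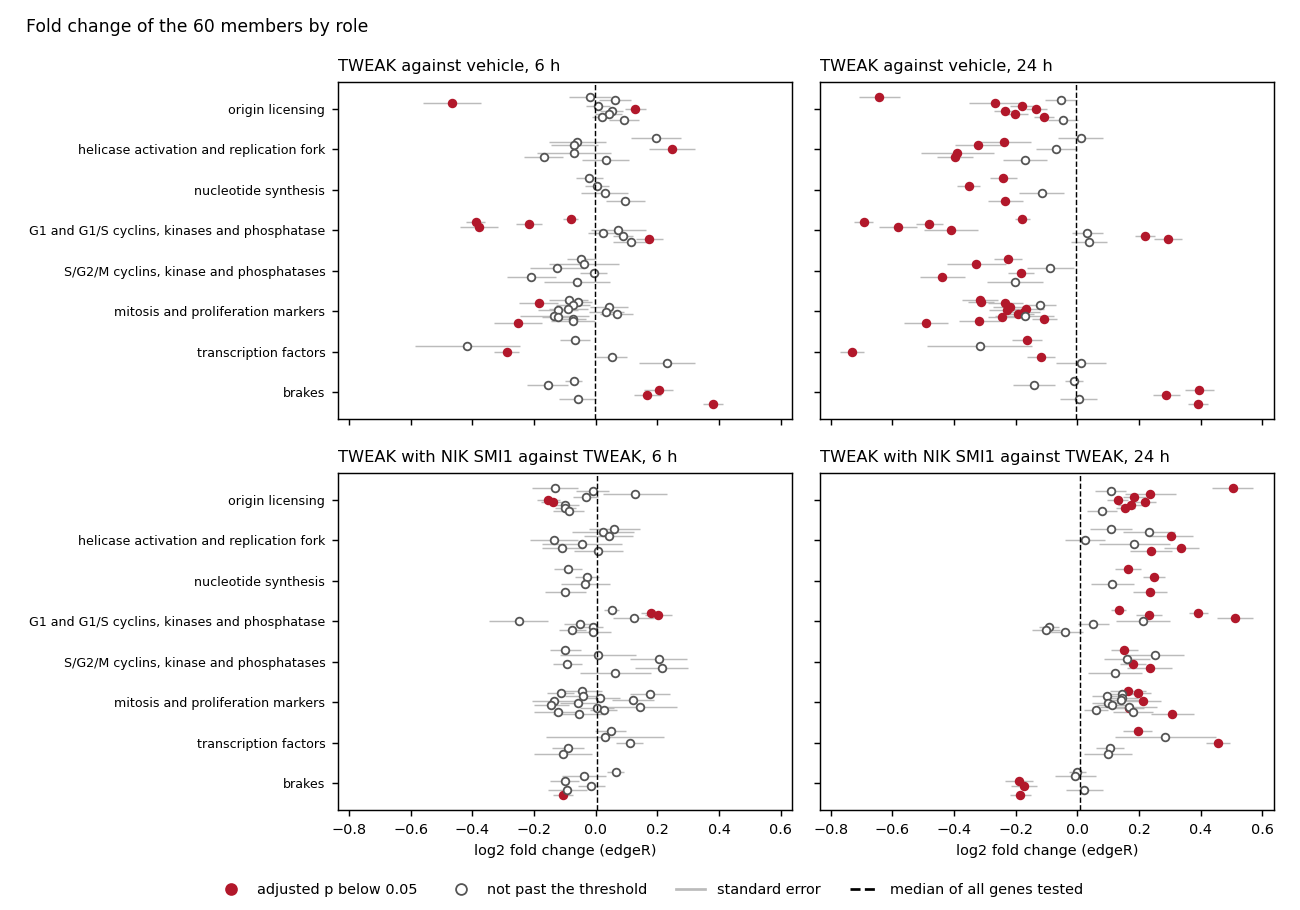
Log2 fold change of each member by role (rows) in 4 comparisons (panels), with bars for the standard error, red points had an adjusted p below 0.05 and the dashed line is the median of all genes tested. Points lie mostly left of the line for TWEAK at 24 h (median -0.19) and right of it for TWEAK with NIK SMI1 at 24 h (median 0.16). The brakes Cdkn2a, Cdkn2b and Trp53 and the kinases Cdk4 and Cdk6 lie on the opposite side in both panels. At 6 h the members scatter around the line.

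At 6 h TWEAK had touched few of the members. Ccnd1, Ccnd2, Ccnd3, Ccne1 and E2f8 were already lower and the log2 fold change of Trp53 was 0.38, beside 0.39 at 24 h, but most replication and mitosis genes did not pass. In all, 14 members passed (23.3%, against 23.7% of all genes), 6 higher (11.7% of all genes) and 8 lower (12.0% of all genes), a share near the background. The members' median log2 fold change was -0.04, against -0.0034 over all genes.

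Trp53 measured 194, 206 and 207 CPM with vehicle and 259, 263 and 263 CPM with TWEAK at 6 h (log2 fold change 0.38 ± 0.033, adjusted p = 5.21e-10), with no overlap. Ccnd2 measured 554, 535 and 541 CPM against 406, 420 and 408 CPM (log2 fold change -0.39 ± 0.031, adjusted p = 1.09e-10), and Ccne1 22.3, 22.3 and 21.5 CPM against 17.4, 15.7 and 17.4 CPM (log2 fold change -0.38 ± 0.061, adjusted p = 2.33e-05). Both cyclins were lower in every TWEAK sample. E2f8 measured 33.6, 32.9 and 33.5 CPM against 27.4, 27.1 and 26.6 CPM (log2 fold change -0.29 ± 0.041, adjusted p = 3.79e-06). Gmnn measured 8.29, 8.18 and 10.1 CPM against 6.55, 6.18 and 6.52 CPM (log2 fold change -0.47 ± 0.095, adjusted p = 0.000428), the largest fall at this time. Ccnd3, Cenpf, Cdc20 and Ccnd1 were the other members that fell, at log2 fold changes of -0.22, -0.25, -0.19 and -0.08, and Ccnd1 lost its call without vehicle replicate 1 (adjusted p = 0.0745) or with the 6 h samples fitted alone (0.069). Mcm10, which helps to activate the helicase, measured 8.78, 8.66 and 9.12 CPM against 10.9, 9.76 and 10.7 CPM (log2 fold change 0.25 ± 0.075, adjusted p = 0.0156), and without vehicle replicate 2, TWEAK replicate 1 or TWEAK replicate 3 its adjusted p was 0.0569, 0.0635 or 0.0619. Cdkn2a measured 55.8, 59.5 and 59.9 CPM against 64.3, 65.7 and 70.2 CPM (log2 fold change 0.20 ± 0.046, adjusted p = 0.0013), and Cdk6 215, 190 and 186 CPM against 220, 218 and 222 CPM (0.17 ± 0.044, adjusted p = 0.00417), both without overlap. Cdkn2b and Mcm3 rose by log2 0.17 and 0.13.

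The usual markers of proliferation overlapped between TWEAK and vehicle at 6 h. Mki67 measured 38.8, 39.1 and 37.2 CPM with TWEAK (log2 fold change -0.09 ± 0.063), within the range with vehicle but for the lowest sample. Top2a measured 127, 117 and 123 CPM with vehicle and 119, 116 and 114 CPM with TWEAK (-0.06 ± 0.043), and Cdk1 49.2, 50.5 and 49.6 CPM against 50.3, 48.3 and 48.7 CPM (-0.01 ± 0.045). Mcm2 measured 65.2, 65.9 and 68.0 CPM against 66.2, 66.2 and 66.1 CPM (0.01 ± 0.040), and Pcna 9.49, 9.59 and 10.3 CPM against 9.25, 9.66 and 8.90 CPM (-0.07 ± 0.12). Neither these nor Cdc6 (-0.02 ± 0.069) passed the threshold. Cdkn1a measured 724, 732 and 739 CPM with TWEAK, below the 752 to 790 CPM with vehicle, and did not pass (-0.07 ± 0.028, adjusted p = 0.0689), but did with DESeq2 (adjusted p = 0.035) or with library sizes alone in edgeR (0.0268).

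The effect of TWEAK differed between the times, by the interaction term of the same fit, in 16 members (26.7%, against 8.91% of all genes), and in all 16 it was lower at 24 h (5.67% of all genes were lower and 3.24% higher). They were 5 licensing genes (Cdc6, Mcm2, Mcm3, Mcm4 and Mcm5), Mcm10, the nucleotide synthesis genes Rrm1, Rrm2 and Tk1, the cyclins Ccnd2, Ccnd3 and Ccne2, the mitosis genes Top2a, Aurkb and Mad2l1, and E2f8. Cdc6 had the largest difference, a log2 change of -0.62 ± 0.097 (adjusted p = 5.81e-05). For Ccne2, the second cyclin E, it was -0.48 ± 0.13 (adjusted p = 0.0132), and for E2f8 -0.44 ± 0.057 (adjusted p = 4.63e-06). For Trp53, Cdkn2a, Cdkn2b and Cdk6 the difference did not pass the threshold.

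At 24 h cells given NIK SMI1 with TWEAK had higher levels of licensing, nucleotide synthesis and G1 cyclin genes than cells given TWEAK alone, and lower levels of 3 brakes. This comparison shares its TWEAK samples with that of TWEAK against vehicle, so values of the 3 groups are set side by side without a test of likeness. Of the 60 members, 30 passed (against 18.5% of all genes), 27 higher with NIK SMI1 (45.0%, against 10.2%) and 3 lower (5.00%, against 8.29%). The median log2 fold change was 0.16 (0.0083 over all genes). By role, 7 of 9 licensing genes, 3 of 7 fork genes, 3 of 4 nucleotide synthesis genes, 4 of 9 G1 and G1/S genes, 3 of 6 S/G2/M genes, 5 of 14 mitosis and proliferation markers and 2 of 5 transcription factors rose. Cdkn2a, Trp53 and Cdkn2b were the 3 that fell.

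With TWEAK and NIK SMI1, Ccne1 measured 31.6, 28.9 and 28.7 CPM, above every sample with TWEAK alone (log2 fold change 0.51 ± 0.060, adjusted p = 2.64e-07). Cdc6 measured 21.3, 18.9 and 20.4 CPM (0.50 ± 0.066, adjusted p = 1.69e-06), and E2f8 60.8, 63.8 and 61.1 CPM (0.46 ± 0.039, adjusted p = 9.13e-10). Their ranges did not reach those with TWEAK alone, and that of E2f8 lay between the other 2 groups. Ccnd2 measured 596, 570 and 568 CPM (0.39 ± 0.031, adjusted p = 2.5e-10), also between TWEAK and vehicle. Ccnd3 measured 76.8, 72.9 and 76.5 CPM (0.23 ± 0.042, adjusted p = 0.000191) and Ccnd1 3324, 3294 and 3322 CPM (0.13 ± 0.024, adjusted p = 0.000136).

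Among the replication genes Mcm4 measured 113, 117 and 116 CPM with NIK SMI1 (log2 fold change 0.22 ± 0.036, adjusted p = 4.29e-05), Mcm2 128, 127 and 139 CPM (0.19 ± 0.038, adjusted p = 0.000733) and Mcm3 135, 135 and 136 CPM (0.13 ± 0.033, adjusted p = 0.00581). All of these samples exceeded those with TWEAK alone, although Mcm3 had an adjusted p of 0.0563 without TWEAK replicate 2. Pola1, a subunit of the polymerase that primes DNA synthesis, rose by log2 0.34 ± 0.058 (adjusted p = 8.34e-05), Gins2, a subunit of the active helicase, by 0.30 ± 0.072 (adjusted p = 0.00286) and Rrm2, the small subunit of ribonucleotide reductase, by 0.25 ± 0.036 (adjusted p = 6.73e-06). Gmnn measured 16.7, 16.1 and 18.9 CPM (0.24 ± 0.083, adjusted p = 0.0469) and lost its call when any 1 of 5 samples was left out. Pcna, at 12.9, 13.6 and 16.0 CPM, overlapped with TWEAK alone and did not pass (0.18 ± 0.12, adjusted p = 0.313), whereas without TWEAK replicate 1 it did (0.36, adjusted p = 0.0175). The summed licensing genes reached 841 ± 12.1 CPM, against 749 ± 11.7 CPM with TWEAK alone.

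Cdk1 measured 113, 110 and 117 CPM with NIK SMI1 (log2 fold change 0.18 ± 0.042, adjusted p = 0.00252) and Top2a 258, 274 and 270 CPM (0.20 ± 0.041, adjusted p = 0.000949), each above every sample with TWEAK alone. Mki67, at 87.3, 93.5 and 92.3 CPM, was likewise above (0.17 ± 0.058, adjusted p = 0.0489), but lost its call without TWEAK replicate 1 (0.15) or 2 (0.185) or without NIK SMI1 replicate 2 (0.174) or 3 (0.139). Of the brakes, Cdkn2a measured 74.3, 71.2 and 74.6 CPM (-0.19 ± 0.045, adjusted p = 0.00353), Cdkn2b 84.3, 77.7 and 83.3 CPM (-0.17 ± 0.043, adjusted p = 0.00465) and Trp53 257, 246 and 248 CPM (-0.18 ± 0.033, adjusted p = 0.000124). In all 3 the NIK SMI1 samples were below those with TWEAK alone and, for Cdkn2a and Trp53, above those with vehicle. Cdkn1a, at 669, 635 and 631 CPM, did not pass (-0.00 ± 0.028, adjusted p = 0.997), nor did Cdk6 (-0.10 ± 0.045, adjusted p = 0.122) and Cdk4 (-0.09 ± 0.033, adjusted p = 0.0569). TWEAK replicate 2 had an islet gene level of 0.235 CPM, against at most 0.087 CPM with NIK SMI1. Against that sample alone the members' median log2 fold change was 0.17, beside 0.011 over all genes.

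**Figure D3:**
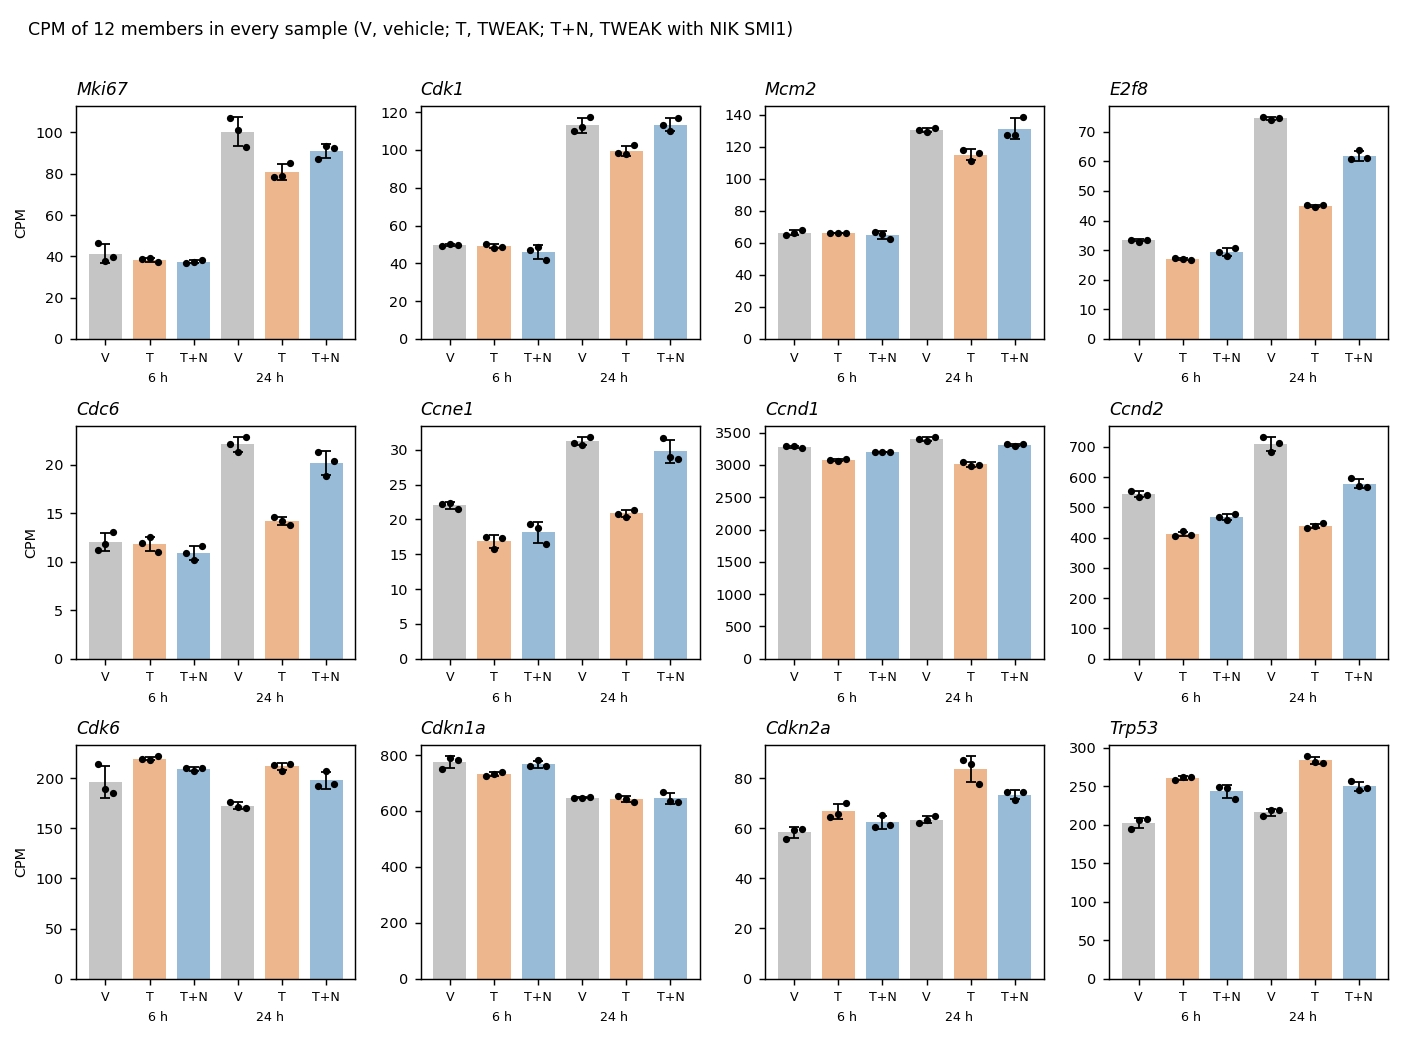
CPM of 12 members in every sample, with points for samples, bars for the mean of 3 and error bars for the SD, where the left 3 bars of each panel are 6 h and the right 3 are 24 h. E2f8, Cdc6, Ccne1 and Ccnd2 show the lower TWEAK bar at 24 h most clearly (39.7% lower for E2f8), Trp53 is raised at both times, and Cdkn1a hardly differs between treatments at 24 h.

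With NIK SMI1 added to TWEAK at 6 h, 5 members were called (8.33%, against 11.0% of all genes), a share near the background. Of all genes, 5.34% were higher and 5.70% lower. The members called were the D cyclins Ccnd2 and Ccnd3, which were higher, and Mcm3, Mcm4 and Trp53, which were lower. Ccnd2 measured 406, 420 and 408 CPM with TWEAK and 468, 459 and 478 CPM with TWEAK and NIK SMI1 (log2 fold change 0.18 ± 0.031, adjusted p = 0.00019). Ccnd3 measured 57.6, 58.9 and 58.6 CPM against 66.5, 70.9 and 64.7 CPM (0.20 ± 0.044, adjusted p = 0.00207). Both cyclins were higher in every sample with NIK SMI1. Mcm3 measured 74.2, 72.1 and 71.8 CPM against 65.3, 66.1 and 65.3 CPM (-0.15 ± 0.036, adjusted p = 0.00459), Mcm4 65.7, 63.3 and 66.0 CPM against 59.97, 56.1 and 61.9 CPM (-0.14 ± 0.039, adjusted p = 0.019), and Trp53 259, 263 and 263 CPM against 249, 249 and 233 CPM (-0.11 ± 0.033, adjusted p = 0.0349). Mcm4 and Trp53 each lost their call when any 1 of 3 samples was left out, and 3 members in all were called without TWEAK replicate 3.

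The effect of NIK SMI1 differed between the times in 19 members (31.7%, against 4.73% of all genes), and in all 19 it was higher at 24 h (3.11% of all genes were higher and 1.62% lower). The 6 licensing genes Cdc6, Mcm2, Mcm3, Mcm4, Mcm5 and Mcm6, the 3 nucleotide synthesis genes Rrm1, Rrm2 and Tk1, the cyclins Ccnd2, Ccne1, Ccne2 and Ccna2, and Pola1, Cdk1, Top2a, Bub1, Mad2l1 and E2f8 were the genes concerned. The largest differences were in Cdc6, with a log2 change of 0.64 ± 0.099 (adjusted p = 0.000339), and in Ccne2, with 0.46 ± 0.13 (adjusted p = 0.0376). The MCM subunits differed by 0.22 to 0.36.

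For TWEAK and NIK SMI1 against vehicle at 24 h, members were called in shares no higher than those of all genes. In all, 9 members passed (15.0%, against 17.9% of all genes), with a median log2 fold change of -0.03. Of the 60, 4 were higher (6.67%, against 8.07% of all genes) and 5 lower (8.33%, against 9.83%). Most replication and mitosis genes were not called. Ccnd2 (-0.30 ± 0.031, adjusted p = 2.96e-08), E2f8 (-0.27 ± 0.038, adjusted p = 4.18e-06), Ccnd3 (-0.25 ± 0.042, adjusted p = 7.02e-05), Cdc25b (-0.20 ± 0.072, adjusted p = 0.049) and Rrm2 (-0.10 ± 0.036, adjusted p = 0.0461) were lower. Cdkn2a (0.21 ± 0.047, adjusted p = 0.00201), Trp53 (0.21 ± 0.033, adjusted p = 3.44e-05), Cdk6 (0.19 ± 0.045, adjusted p = 0.0028) and Cdk4 (0.13 ± 0.034, adjusted p = 0.00752) were higher. For Ccne1 (-0.07 ± 0.059) and Cdc6 (-0.14 ± 0.065) a difference from vehicle was not detected. The islet gene level also separated these groups, at 14.9 to 21.0 CPM with vehicle and at most 0.087 CPM with NIK SMI1 at 24 h. No sample of either group was near the other in that level, so its part cannot be told apart from that of treatment. Summed by role, the groups stood at 94.1% (mitosis and proliferation markers) to 101% (licensing genes) of vehicle, other than the brakes at 104%. With TWEAK alone they stood at 80.7% (transcription factors) to 89.7% (licensing genes), and the brakes at 109%. At 6 h TWEAK with NIK SMI1 differed from vehicle in 11 members (13.9% of all genes), 8 lower (6.70% of all genes) and 3 higher (7.24%), with Trp53 at 0.27 ± 0.033 and Ccnd2 at -0.21 ± 0.031. That count was 5 without NIK SMI1 replicate 2.

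**Figure D4:**
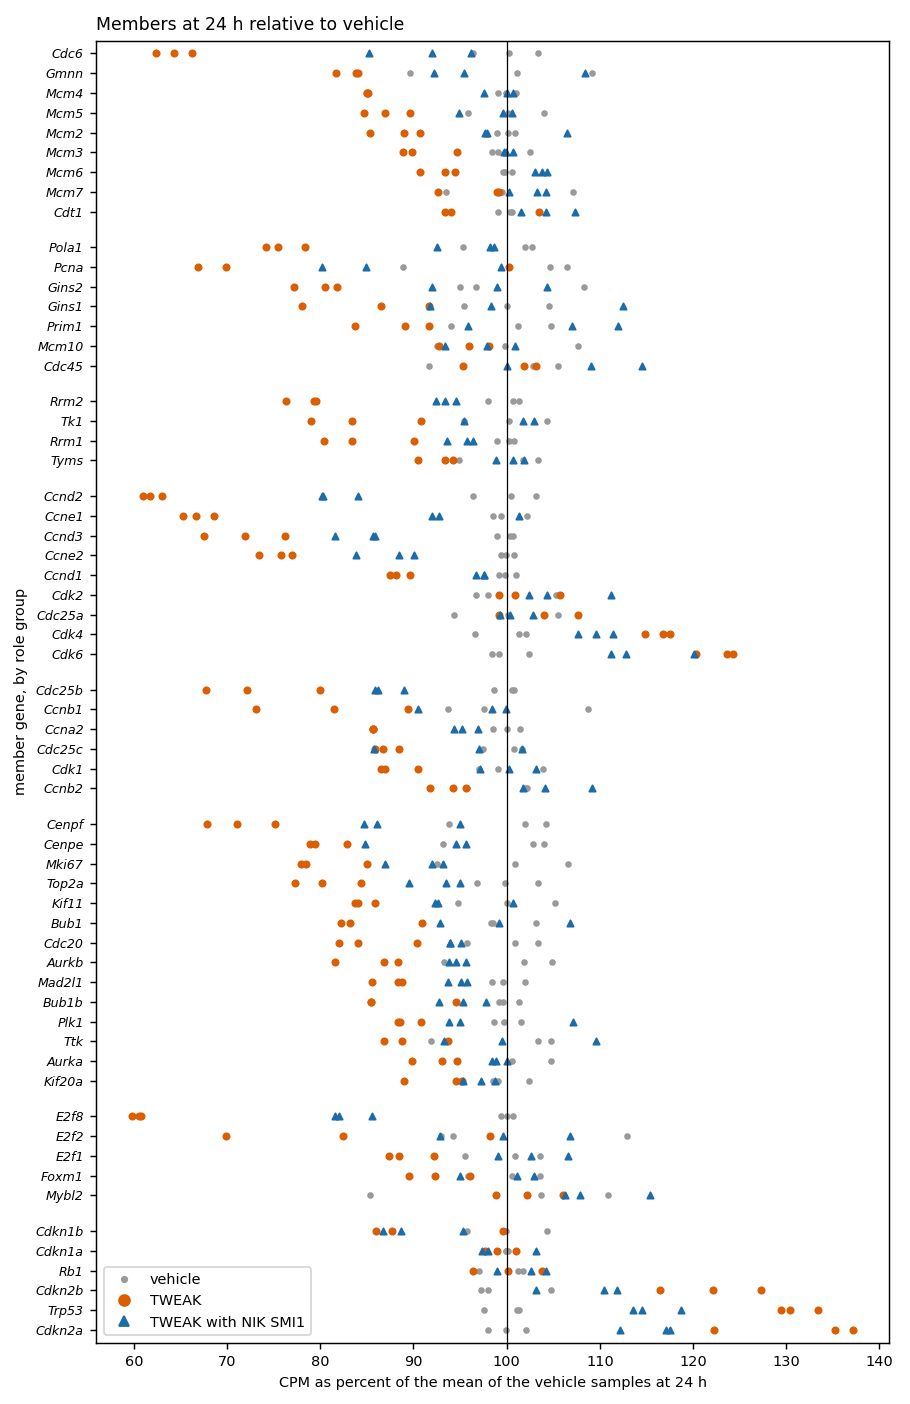
CPM of each member at 24 h in every sample as a percent of the mean of the 3 vehicle samples, with members grouped by role and sorted within the group by their TWEAK level. TWEAK samples (orange circles) lie left of 100% for most members down to E2f8 and right of it for Cdk4, Cdk6, Cdkn2b, Trp53 and Cdkn2a, and samples with NIK SMI1 (blue triangles) lie nearer to 100% for most members.

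Related genes outside the 60 were read from lists of the same pathways. Beside them, 20.7% of all genes fell and 18.3% rose with TWEAK at 24 h, 10.2% were higher and 8.29% lower with NIK SMI1 added, and 15.5% rose with time in vehicle. Of 36 other mitosis genes, 24 fell and 1 rose with TWEAK at 24 h (median log2 fold change -0.21), 19 rose and 0 fell with NIK SMI1 added (0.15), and 35 rose with time in vehicle (1.16). Of 34 other replication genes, 13 fell and 1 rose with TWEAK at 24 h (-0.13), 17 rose and 0 fell with NIK SMI1 (0.15), and 30 rose with time (0.66). Of 29 other cell cycle regulators, 8 fell (27.6%) and 5 rose (17.2%) with TWEAK at 24 h, shares near those of all genes. Those that rose most were Myc, a growth-promoting transcription factor, from 160 ± 5.48 CPM (SD, n = 3) to 253 ± 2.59 CPM (log2 fold change 0.66 ± 0.034, adjusted p = 8.41e-15), Fzr1, an activator of the anaphase-promoting complex, from 88.6 ± 0.415 to 127 ± 2.45 CPM (0.52 ± 0.044, adjusted p = 1.78e-10), and Wee1, the kinase that inhibits CDK1, from 56.8 ± 3.73 to 81.9 ± 1.40 CPM (0.52 ± 0.045, adjusted p = 2.24e-10). With NIK SMI1 all 3 were lower than with TWEAK alone, by log2 0.34 for Myc, 0.26 for Fzr1 and 0.44 for Wee1.

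Among targets of p53 nearly all calls with TWEAK were rises at 6 h, and both directions were called at 24 h. Of 20, 11 rose and 1 fell with TWEAK at 6 h (median log2 fold change 0.19), where 11.7% of all genes rose and 12.0% fell. At 24 h 10 rose and 5 fell (0.10), against 18.3% and 20.7% of all genes, beside the rise in Trp53 and the absence of a call in Cdkn1a, itself a p53 target. Plk2 rose from 403 ± 11.0 to 668 ± 13.0 CPM at 24 h (0.73 ± 0.033, adjusted p = 4.15e-16) and Pmaip1, which encodes the pro-apoptotic NOXA, from 292 ± 12.0 to 495 ± 8.31 CPM (0.76 ± 0.045, adjusted p = 1.24e-13). The 20 spanned log2 fold changes of -0.30 to 0.87 at 24 h. Highest was Fas, a gene of low level, at 0.805 ± 0.0499 CPM with vehicle and 1.44 ± 0.272 CPM with TWEAK. With NIK SMI1 at 24 h 6 of the 20 were lower and 3 higher than with TWEAK alone (8.29% and 10.2% of all genes). Of 15 tested genes associated with quiescence and senescence, 5 rose and 5 fell with TWEAK at 24 h (18.3% and 20.7% of all genes), and Igfbp5, an IGF-binding protein, fell most, from 283 ± 2.85 to 33.5 ± 1.34 CPM (-3.08 ± 0.049, adjusted p = 8.16e-26).

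The library kit does not mark strand, and exons of 20 members share bases with a gene on the opposite strand (GENCODE M21), whose reads cannot be told apart there. They include Gins2 (2758 bases shared with Gse1), Kif20a (1271 with Cdc23), Ccnd1 (1100 with LTO1), Cdk4 (641 with Tspan31) and Cdc25c (623 with Gm3550). E2f8 (610 with Gm2788), Ccne2 (609 with Ints8), Cdk6 (368 with Gm17590) and Ccnd3 (361 with Bysl) are also among them. So are Ccnd2 (372 with Gm43126 and 368 with another antisense gene) and Cdkn1a (273 with AC167363.2), but not Trp53. For Pcna, Ccnb1, Ccnb2, Ccnd3, Tyms and Trp53 named pseudogenes exist, and since uniquely aligned reads were counted, reads that fit both copies were lost.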

How the data were processed

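Reads had been mapped by the authors with GSNAP (HTSeqGenie) against mouse NCBI build 37. The authors deposited, per gene, raw counts of uniquely aligned exonic reads and RPKM values. CPM was computed from the counts and the total of counted reads, and RPKM was used for levels between genes only. All 18 samples entered a single model of 6 groups, with edgeR 4.0.16 under R 4.3.3 (TMM, estimateDisp, glmQLFit, glmQLFTest), with p-values adjusted by the Benjamini-Hochberg method over all 15521 genes tested. Standard errors were derived from the F statistic. A count of 3 reads correspond to 0.0577 to 0.166 CPM, which covers counting error only. The labels give no replicate numbers, so samples of a group were numbered in the order of the records, and the numbers pair nothing. The scripts were tested on simulated data. DESeq2 1.42.0, other normalizations and filters, glmTreat and leaving out each sample were tried.

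The members and the lists of related and marker genes were chosen with earlier results of these data known, the alternatives on islet genes after they had been seen. Values of each sample are given for 8 usual markers of proliferation and arrest and for the up to 4 largest rises and falls among called members in each main comparison, and Cenpf, Ccne2, Cdk4, Pola1, Gins2, Rrm2 and others are named with summary values. The 13 members without a promoter window were Ccnd1, Gins2, Cdc25c, Foxm1, Rb1, Ccne2, Ccnd2, Kif20a, Gmnn, Gins1, Aurkb, Mcm4 and Ccna2.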

Additional observations from a re-analysis of the deposited data

Results flagged for a closer look

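Among the members whose values are given by sample, the TWEAK effect of 10 differed between 6 h and 24 h by the interaction term of the edgeR fit, with a lower log2 fold change at 24 h each time. The difference in log2 fold change was -0.44 for E2f8, -0.30 for Ccnd2, -0.26 for Ccnd3, -0.26 for Mcm3, -0.19 for Mcm2, -0.29 for Mcm4, -0.26 for Aurkb, -0.26 for Top2a, -0.62 for Cdc6 and -0.31 for Mcm10. Aurkb and Mcm10 rested on adjusted p-values of 0.0433 and 0.0485. Aurkb lost its call in 8 of the 12 fits with 1 sample left out, Mcm10 in 10 and Mcm2 in 6. Mcm10 also lost it with DESeq2 (adjusted p = 0.0559) and, in edgeR, with DESeq2 size factors (0.0504). Library sizes alone and no filter in edgeR took the call from both Mcm10 (0.0616 and 0.0745) and Aurkb (0.0526 and 0.0602).

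The effect of NIK SMI1 differed between the times in 9 of the members whose values are given by sample, with a higher log2 fold change at 24 h each time. The difference was 0.35 for E2f8, 0.21 for Ccnd2, 0.39 for Ccne1, 0.27 for Cdk1, 0.28 for Mcm3, 0.22 for Mcm2, 0.36 for Mcm4, 0.31 for Top2a and 0.64 for Cdc6. Mcm2 lost its call without TWEAK 24 h replicate 2 (adjusted p = 0.0817) or NIK SMI1 24 h replicate 3 (0.0882). The TWEAK samples enter both differences with opposite sign.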

How the results depend on the processing

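DESeq2, its size factors in edgeR, library sizes alone, no filter and filterByExpr kept each of the 9 counts of called members within 1.5 times the value given. Against a 1.2-fold change (glmTreat), 2 and 11 members passed for TWEAK at 6 h and 24 h (7.12% and 13.7% of all genes, so that the 24 h share of 11 in 60 was much nearer to that of all genes), 0 and 4 for NIK SMI1 with TWEAK against TWEAK (1.4% and 3.58%), 0 and 0 for both agents against vehicle (1.64% and 4.56%), 45 for time in vehicle (6.8%), and 2 and 1 (2.04% and 0.238%) for the differences of the TWEAK and NIK SMI1 effects between times. Fitted alone, 6 h gave 3 members for NIK SMI1, and TWEAK replicate 1 at 24 h alone gave 28 for TWEAK. With 1 sample left out the counts were 12 to 15 and 36 to 44 (TWEAK at 6 h and 24 h), 3 to 7 and 25 to 32 (NIK SMI1), 5 to 15 and 6 to 12 (both agents against vehicle), 52 to 53 (time in vehicle), and 11 to 21 and 13 to 20 (differences between times). The lowest counts at 6 h came without TWEAK replicate 3 (3) and without NIK SMI1 replicate 2 (5). The calls of 34 of the 43 members changed by TWEAK at 24 h and of 21 of the 30 changed by NIK SMI1 held in all 6 such fits. Among 3072 values of single members, 2886 kept direction and side of the threshold, 154 lost the call, 31 gained it and 1 reversed, that of Ccnd1 with time in vehicle (0.053 with library sizes alone); the cause was not tested. The planned removal of samples with over 10 times the median islet level found 0 samples and gave no value. No paired analysis was possible because the labels carry no replicate numbers, and the numbers used here only tell samples apart.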
